A study of Mus musculus with 6 samples.

Results

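The Hox genes of the mouse are 39 transcription factor genes with a homeodomain, set in 4 clusters named A, B, C and D. They were taken here as every gene whose name is Hox, a cluster letter and a number, which gave 39 of the 34745 genes in the table. The number is the paralogue group: members of different clusters with the same number descend from a common ancestral gene. Position in a cluster follows position in the body, so that groups with low numbers act towards the head and groups with high numbers towards the tail, and group 13 marks the hindgut and its end. In the adult gut each segment keeps part of this code, mostly in the connective tissue and muscle and partly in the epithelium, so Hox transcripts carry information on where along the gut and from which layers a sample came.

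The values come from RNA sequencing of colon tissue in 6 libraries. The 3 knockout libraries came from TRPC-hepta knockout mice, which by the series title have none of the 7 TRPC proteins, a family of calcium-permeable cation channels. The 3 control libraries came from TRPC-hepta control mice. All mice were male and matched in age (the age itself was not used here), and all had received DSS (dextran sulfate sodium, which injures the colonic epithelium) for 6 days. No untreated mice were analysed here. The labels do not say whether the libraries of a group are separate animals, so p-values measure the spread between these samples only. They also do not say from which length of the colon a piece was cut, and its part in the values below was not tested.

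The knockout libraries held 13816295, 14529028 and 15505327 reads and the control libraries 16819662, 17584992 and 16864863 reads. Trpc1, the TRPC gene with the most reads, stood at 9.97, 6.57 and 7.48 CPM (counts scaled to the library total after TMM) in knockout libraries 1, 2 and 3, against 11.0, 8.39 and 7.54 CPM in control libraries 1, 2 and 3. Trpc1, Trpc4 and Trpc6 did not pass the edgeR threshold. Which stretch of each gene was deleted is not known from the labels, and reads summed over a whole gene then do not check the genotype, and the groups are called as labelled. Knockout library 3 lay close to a weighted sum of the other knockout libraries: 0.497 times the counts of library 1 plus 0.594 times those of library 2, fitted over 15800 genes. For each gene, the squared deviation from that sum was divided by the variance expected from read counting. The median ratio over genes was 1.19. It was 3.08, 3.2 and 4.23 when control libraries 1, 2 and 3 were each fitted on the other controls. These medians compare the fits with each other and are not multiples of the level reached by counting error. Whether library 3 is a sample separate from the other knockout libraries is not known from the labels and was not tested. It is counted as labelled, and the Hox calls and marker calls are also given without it.

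Cluster A, on the minus strand of chromosome 6, had 11 members and 33317 reads over the 6 libraries. Cluster B, on chromosome 11 from 96194316 to 96368256 (GRCm38) on the plus strand, had 10 members and 24221 reads. Cluster C, on chromosome 15 from 102921103 to 103036852 on the plus strand, had 9 members and only 300 reads. Cluster D, on chromosome 2 from 74668310 to 74765142 on the plus strand, had 9 members and 8220 reads. Reads were found for 36 of the 39 genes, and Hoxb1, Hoxc12 and Hoxc13 had 0 reads in every library. Of the 39 genes, 28 passed edgeR's filter on low counts and were tested, while 11 did not (Hoxb1, Hoxc5, Hoxc6, Hoxc8, Hoxc9, Hoxc10, Hoxc11, Hoxc12, Hoxc13, Hoxd1 and Hoxd12). By their deposited coordinates, 22 members overlap another gene and 14 overlap a gene on the opposite strand. How strand was handled is not known from the labels, and reads of such pairs cannot be told apart.

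The promoter windows of 3 members with contrasting patterns below are printed to show how their base composition differs. Each window runs from 250 bases before to 50 bases after the gene start in RefSeq on GRCm38.p6. Capitals mark TTTAT or its reverse complement ATAAA, a short element that CDX proteins can bind, searched on both strands. It overlaps the TATA element TATAAA. The Hoxd13 window is chr2:74667975-74668274 on the plus strand, the Hoxa13 window chr6:52260831-52261130 on the minus strand, and the Hoxd4 window chr2:74721728-74722027 on the plus strand. The Hoxd4 span over which reads were counted starts at 74711929, so the Hoxd4 window lies inside that span.
Hoxd13: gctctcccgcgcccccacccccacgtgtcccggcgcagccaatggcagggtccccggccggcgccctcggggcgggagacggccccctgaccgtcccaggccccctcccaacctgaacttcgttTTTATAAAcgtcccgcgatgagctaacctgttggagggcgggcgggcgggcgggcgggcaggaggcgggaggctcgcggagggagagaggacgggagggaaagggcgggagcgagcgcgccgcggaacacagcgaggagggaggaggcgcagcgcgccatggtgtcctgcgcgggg
Hoxa13: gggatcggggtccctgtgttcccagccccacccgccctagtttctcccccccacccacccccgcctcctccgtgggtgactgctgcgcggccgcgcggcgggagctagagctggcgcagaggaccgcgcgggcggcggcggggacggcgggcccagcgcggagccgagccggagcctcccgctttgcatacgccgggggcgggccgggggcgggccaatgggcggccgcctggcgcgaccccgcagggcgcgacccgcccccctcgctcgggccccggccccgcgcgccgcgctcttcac
Hoxd4: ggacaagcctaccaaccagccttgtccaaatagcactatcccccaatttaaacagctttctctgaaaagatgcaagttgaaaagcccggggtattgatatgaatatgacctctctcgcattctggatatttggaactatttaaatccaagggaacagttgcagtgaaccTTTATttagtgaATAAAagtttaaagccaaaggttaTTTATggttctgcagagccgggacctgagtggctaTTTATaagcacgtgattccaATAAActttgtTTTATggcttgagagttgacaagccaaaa

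The Hoxd13 and Hoxa13 windows hold 37 and 45 CpG dinucleotides, and the Hoxd4 window holds 4. Entries were found for 22 Hox genes, with 24 windows in all, whose median was 14.5 CpG against 7 over the 32851 mouse windows. The element was present in 9 of the 24 Hox windows and in 40% of all windows. It occurs 6 times in the Hoxd4 window, as overlapping matches in the Hoxd13 window and not in the Hoxa13 window. These matches describe the letters only.

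**Figure D1:**
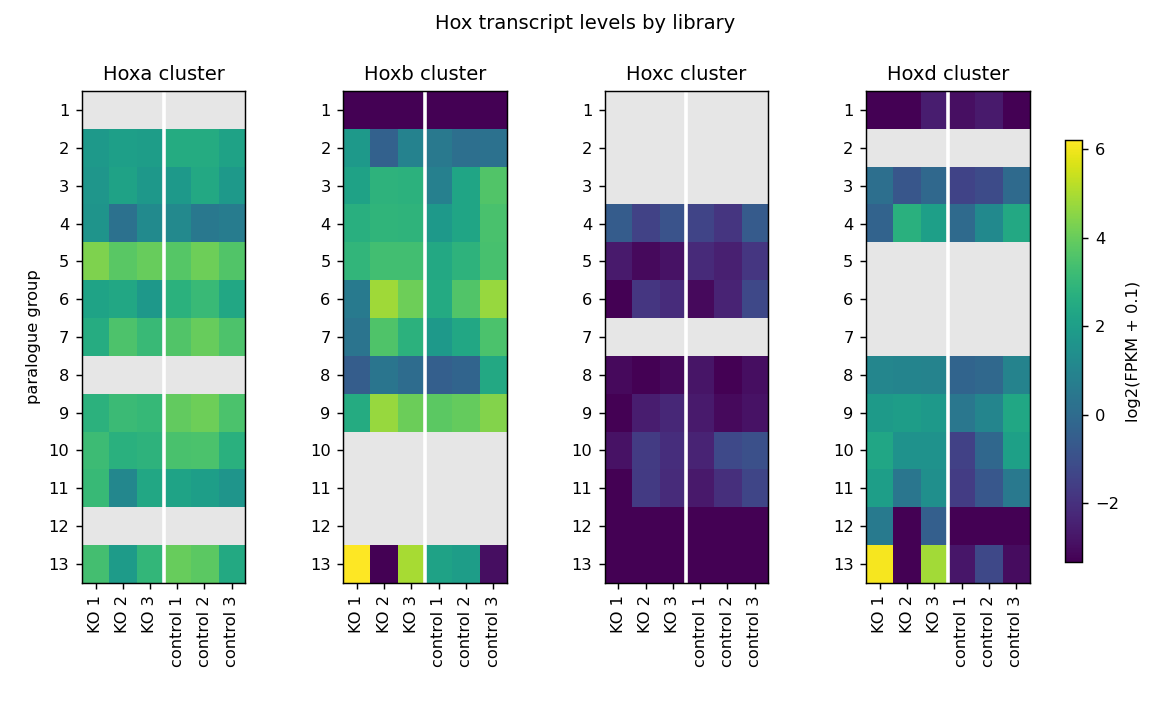
FPKM of the Hox genes by library, with knockout libraries left of control libraries and genes ordered by cluster and paralogue number, on a log2(FPKM + 0.1) colour scale; grey marks places where no gene is shown. Cluster C is near 0 throughout, and Hoxb13 and Hoxd13 are high in knockout libraries 1 and 3 and at 0 reads in knockout library 2.

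Group 13 holds the genes expressed nearest the tail. Hoxd13, which acts in the hindgut and in limb and urogenital development, stood at 67.3, 0 and 29.6 FPKM (fragments per kilobase, scaled by library total) in knockout libraries 1, 2 and 3, against 0.0479, 0.321 and 0.0239 FPKM in control libraries 1, 2 and 3. Its reads were 2308, 0 and 1141 in the knockout libraries, against 2, 14 and 1 in the control libraries. The 0 reads of knockout library 2 allow a level of up to 3 reads, or 0.219 CPM, a limit that covers counting error only. Knockout libraries 1 and 3 were far above every control library, and knockout library 2 could not be told from control libraries 1 and 3 at this depth.

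Hoxb13, which marks the distal colon and rectum and also the prostate, followed the same order of libraries within the knockout group. It stood at 73.5, 0 and 31.1 FPKM in the knockout libraries, against 4.37, 3.82 and 0.0269 FPKM in the control libraries, from 2240, 0 and 1063 reads against 162, 148 and 1. Unlike Hoxd13, it also separated the controls: libraries 1 and 2 held over 100 reads each and library 3 held 1. The groups overlap for both genes, because knockout library 2 had no reads of either.

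Hoxa13, the member of this group needed with Hoxd13 for normal hindgut development, was read in all 6 libraries. It stood at 10.2, 3.62 and 7.83 FPKM in the knockout libraries, against 15.9, 14 and 5.44 FPKM in the control libraries. Knockout library 2 was again the lowest and knockout library 1 the highest of its group, and control library 3 the lowest of the controls. Summed over group 13, FPKM came to 151, 3.62 and 68.5 in the knockout libraries, against 20.3, 18.1 and 5.49 in the control libraries. The remaining member of the group, Hoxc13, had no reads.

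**Figure D2:**
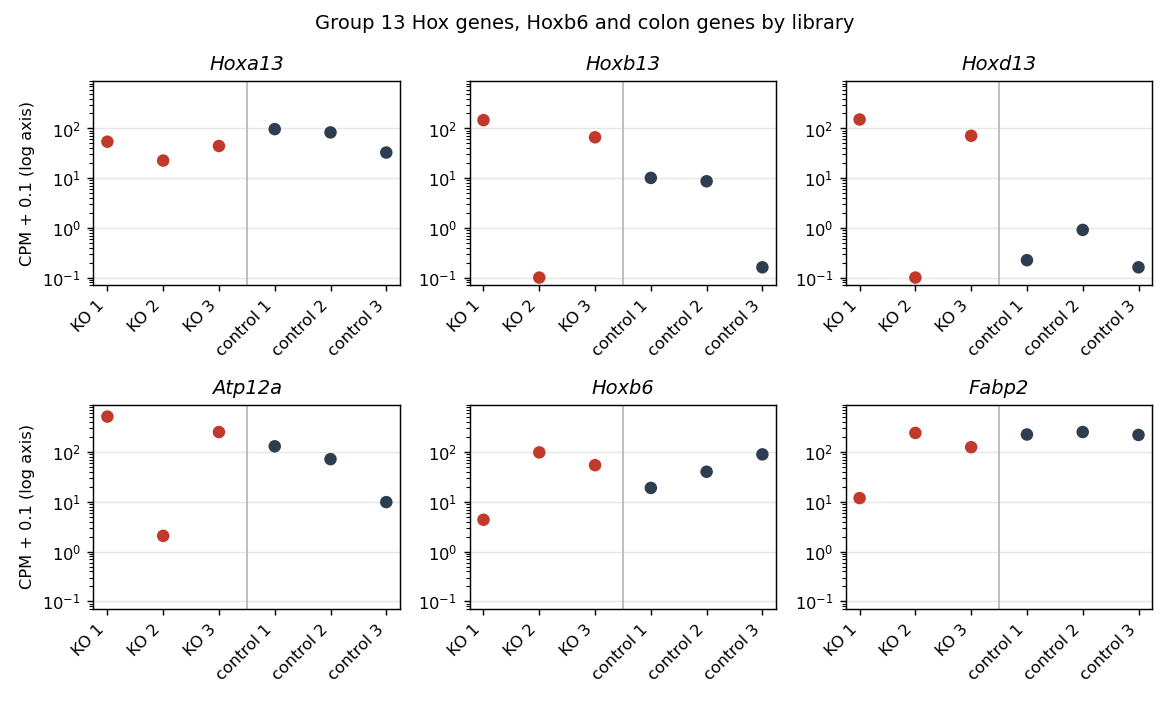
CPM plus 0.1 of the group 13 Hox genes read, Hoxb6, the distal gene Atp12a and the absorptive cell gene Fabp2 in each library, with knockout libraries left of control libraries on a log axis. Hoxb13, Hoxd13 and Atp12a are highest in knockout library 1 and lowest in knockout library 2, and Hoxb6 is lowest in knockout library 1.

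The genes of cluster D next to Hoxd13 were also highest in knockout library 1. Hoxd12, the neighbour of Hoxd13, had 50, 0 and 25 reads in the knockout libraries, against 0 in each control library, and did not pass the filter. Hoxd11, which patterns limb, kidney and hindgut, stood at 3.99, 1.23 and 2.58 FPKM in the knockout libraries, against 0.226, 0.495 and 1.32 FPKM in the control libraries. The lowest knockout library was below the highest control library, so the Hoxd11 groups overlap, narrowly. Hoxd10 stood at 4.82, 2.77 and 2.77 FPKM in the knockout libraries, against 0.262, 0.814 and 4.21 FPKM in the control libraries.

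The other members of cluster D did not share 1 order of libraries. Hoxd8 stood at 1.97, 1.88 and 1.81 FPKM in the knockout libraries, against 0.733, 0.827 and 1.80 FPKM in the control libraries, with almost no spread in the knockout group. Hoxd4, of the central groups, stood at 0.727, 6.44 and 4.07 FPKM in the knockout libraries, against 0.890, 2.20 and 5.28 FPKM in the control libraries. It was lowest in knockout library 1, where Hoxd13 was highest. Hoxd3, next to it, stood at 1.01, 0.491 and 0.833 FPKM in the knockout libraries, against 0.281, 0.351 and 0.869 FPKM in the control libraries, with the order of Hoxd13 in the knockout group. Hoxd4 lies wholly inside the Hoxd3 span, and Gm28230, on the same strand, overlaps both, so the counts of Hoxd3 and Hoxd4 are uncertain. Summed FPKM of cluster D was 84.8, 16.6 and 45.8 in the knockout libraries, against 3.72, 6.98 and 18.5 in the control libraries.

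Summed FPKM of cluster A ran from 60.6 to 100 over the 6 libraries, against 39.6 to 104 in cluster B. Within the knockout group cluster B varied less, at 98.5 ± 5.66 against 67.0 ± 7.27 in cluster A (SD). Single members of cluster A varied more than its sum, such as Hoxa13 above and Hoxa11, at 2.02 to 8.35 FPKM in the knockout libraries. Hoxa5, which acts in lung and gut mesenchyme and had the highest mean FPKM of the cluster, stood at 20.2, 13.5 and 15.9 FPKM in the knockout libraries, against 12.7, 17.2 and 12.3 FPKM in the control libraries, and the groups overlap. Hoxa9, a posterior gene also known from blood stem cells, stood at 6.89, 8.80 and 8.18 FPKM in the knockout libraries, against 15.1, 17.1 and 11.1 FPKM in the control libraries. All 3 knockout libraries were below all 3 control libraries. Its edgeR log2 fold change, knockout over control, was -0.92 ± 0.22 (SE), and its p of 0.00458 in the quasi-likelihood test of edgeR became 0.102 after Benjamini-Hochberg adjustment over all genes tested.

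Several neighbours in cluster A were also lower in the knockout libraries on average, though none passed the test. Hoxa7 stood at 5.85, 11.5 and 8.57 FPKM in the knockout libraries, against 12, 15.8 and 11.5 FPKM in the control libraries. Hoxa6 stood at 4.55, 5.12 and 3.25 FPKM in the knockout libraries, against 6.60, 8.59 and 5.16 FPKM in the control libraries. On CPM the groups of both genes overlap. Hoxa2, an anterior gene of hindbrain patterning, stood at 3.34, 4.03 and 3.85 FPKM in the knockout libraries, against 5.69, 5.77 and 4.41 FPKM in the control libraries, without overlap. Hoxa10 stood at 9.11, 6.43 and 7.12 FPKM in the knockout libraries, against 11.0, 11.3 and 6.46 FPKM in the control libraries, with control library 3 at the level of knockout library 2.

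In cluster B the central genes ran opposite to Hoxb13. Hoxb6, a central gene, stood at 1.43, 28.4 and 17.2 FPKM in the knockout libraries, against 5.56, 12 and 26.8 FPKM in the control libraries. It was lowest in knockout library 1 and highest in knockout library 2, the reverse of Hoxb13, and among controls it was highest in library 3, where Hoxb13 had 1 read. Hoxb8 stood at 0.603, 1.19 and 0.944 FPKM in the knockout libraries, against 0.643, 0.730 and 5.21 FPKM in the control libraries, so control library 3 alone carried the control mean. Hoxb2 stood at 3.40, 0.679 and 1.79 FPKM in the knockout libraries, against 1.32, 1.0 and 1.06 FPKM in the control libraries, with knockout library 1 highest. Hoxb3, Hoxb4, Hoxb5, Hoxb7 and Hoxb9 ranged from 1.18 to 26.7 FPKM in the knockout libraries, against 1.67 to 21.6 FPKM in the control libraries.

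Cluster C was almost silent. Hoxc4, its highest member, stood at 0.582, 0.268 and 0.440 FPKM in the knockout libraries, against 0.290, 0.180 and 0.563 FPKM in the control libraries, and the groups overlap. Of the 9 members, 8 had under 100 reads over the 6 libraries together. A count of 0 allows a level of up to 3 reads, which is 0.174 to 0.219 CPM over the 6 libraries, so lower levels of these members were not detectable.

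Grouped by paralogue number, the share of summed Hox FPKM from the posterior groups 9 to 13 was 73.6%, 32.7% and 54.7% in the knockout libraries, against 50%, 42.7% and 31.9% in the control libraries. The means were 53.7% ± 20.5 in knockout and 41.6% ± 9.12 in control libraries (SD, n = 3 each), 12.1 percentage points apart, less than the knockout spread. The difference was 3.8 points on CPM, 7.15 without Hoxb13 and 0.294 on CPM without Hoxb13. With groups 10 to 13 as the posterior class it was 19.4 points on FPKM and 12.3 on CPM. For groups 9 to 13 on FPKM it ran from 2.13 without knockout library 1 to 22.6 without knockout library 2. The central groups 4 to 8 gave 20.5%, 57.6% and 37.3% in the knockout libraries, against 40.5%, 46.7% and 56.1% in the control libraries. The anterior groups 1 to 3 gave 5.90%, 9.75% and 8.02% in the knockout libraries, against 9.48%, 10.6% and 12% in the control libraries. Knockout library 1 had the largest posterior share of all 6 and control library 3 the smallest. With 3 libraries a group, an exact permutation test gives p = 0.1 at the least, and none was run on these shares.

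**Figure D3:**
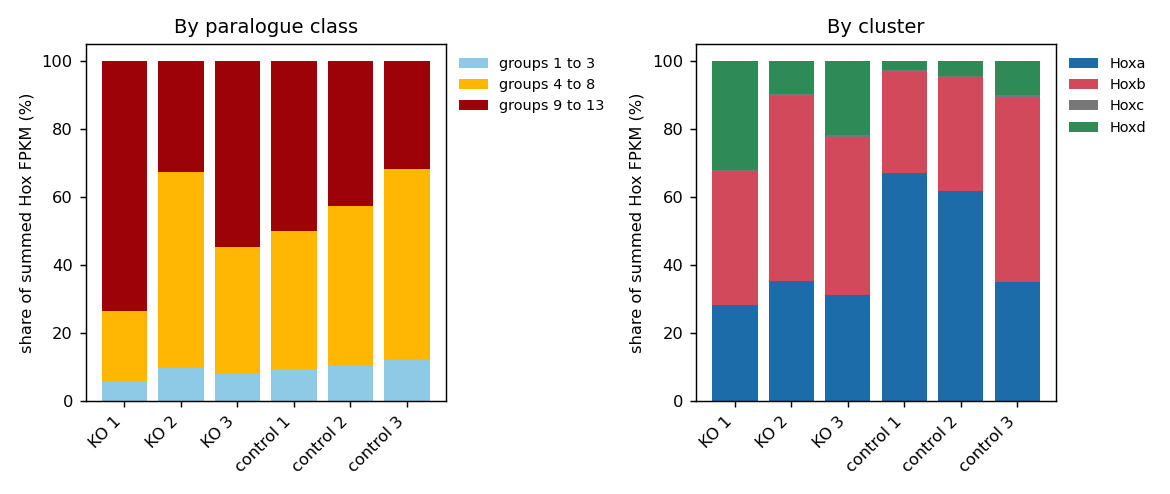
Share of summed Hox FPKM from anterior (1 to 3), central (4 to 8) and posterior (9 to 13) paralogue groups in each library, with knockout libraries left of control libraries. Posterior shares run from 32.7% to 73.6% in knockout libraries and from 31.9% to 50% in control libraries.

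Tested across all genes, 0 of the 28 Hox genes passed an adjusted p of 0.05 in edgeR's quasi-likelihood test (two-sided), against 1.76% of the 15819 genes tested (1.09% higher and 0.67% lower in knockout), with adjusted p-values of the Hox genes from 0.102 to 0.995. An unadjusted p under 0.05 was reached by 4 of the 28 (Hoxa9, Hoxd13, Hoxd11 and Hoxa2), against 16% of all genes. DESeq2 called 2, Hoxd13 higher and Hoxa9 lower in knockout, against 8.11% of all genes (5.0% higher and 3.11% lower). With array quality weights Hoxd11 was called higher and Hoxa2, Hoxa6, Hoxa7 and Hoxa9 lower, against 22.7% of all genes (12.2% higher and 10.4% lower). The Hoxd13 log2 fold change was 7.75 ± 2.15 (SE), with an adjusted p of 0.144 by edgeR, and that of Hoxd11 1.82 ± 0.67, with an adjusted p of 0.254 by edgeR. Hoxb13 had 3.51 ± 1.87, with an adjusted p of 0.426 by edgeR, and Hoxa13 -0.81 ± 0.47, with an adjusted p of 0.464 by edgeR. The fold changes of Hoxd13 and Hoxb13 rest on the reads of knockout libraries 1 and 3.

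The median log2 fold change was 0.11 over the 28 Hox genes and 0.01 over all genes tested, with 16 positive and 12 negative. It was -0.43 in cluster A, with 3 positive and 8 negative, 0.07 in cluster B, with 5 positive and 4 negative, and 0.68 in cluster D, where all 7 tested members were positive, although Hoxd4 was at -0.32 with 1 library left out. The posterior class had a median of 0.33 over 10 tested members, the central class 0.11 over 12 and the anterior class -0.05 over 6. On CPM the groups did not overlap for 2 of 28 Hox genes, Hoxa2 and Hoxa9, both lower in knockout, against 21.6% of all genes tested (11.2% higher and 10.4% lower). Without knockout library 3 again 0 Hox genes passed edgeR, with a lowest adjusted p of 0.356, against 0.093% of all genes (0.0372% higher and 0.0558% lower). Without knockout library 2, Hoxd12 and Hoxd13 were called higher and Hoxa7 and Hoxa9 lower by edgeR, against 11.2% of all genes (8.07% higher and 3.14% lower). Hoxd12, which did not pass the main filter, had reads only in knockout libraries 1 and 3. Its entry to this test and its direction were set by those libraries, so its call is no separate result. Whether knockout libraries 1 and 3 are separate samples is not known.

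**Figure D4:**
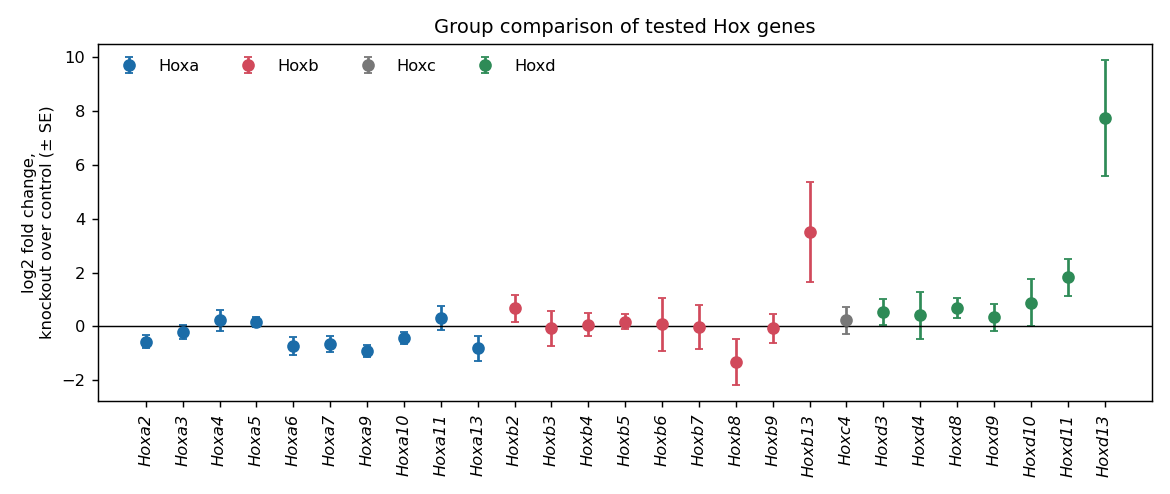
Log2 fold change, knockout over control, with SE from edgeR's quasi-likelihood fit for the tested Hox genes reported here, ordered by cluster and paralogue number. No Hox gene passed the threshold, and the 7 tested genes of cluster D all lie above 0.

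The spread within a group was wide for these genes. Among the 3 control libraries, 16 of the 28 Hox genes ranged at least 2-fold, against 12.668% of all genes tested. Among the 3 knockout libraries, 14 of the 28 did so, against 34.003% of all genes. Knockout library 3 lay between libraries 1 and 2 for 25 of 28 Hox genes, against 72.059% of all genes, and 26 of the 28 lay within 25% of the weighted sum given above. For Hoxd13 the sum gives 1147 reads and 1141 were counted, for Hoxb13 1113 and 1063, and for Hoxb6 837 and 876. When control libraries were fitted the same way, 8, 14 and 4 of the 28 Hox genes lay within 25% for libraries 1, 2 and 3.

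The contrast between knockout libraries 1 and 2 was set beside that between control libraries 1 and 3, which share no library. These are the libraries of highest and lowest posterior share of Hox FPKM in each group, and the pairs were not among the planned comparisons. A correlation across Hox genes is then partly set by the choice of pairs. Across the 28 Hox genes the log2 ratios of the pairs correlated at a Pearson r of 0.615 and a Spearman rho of 0.467, against 0.144 and 0.105 across all genes tested. Hoxb13 lies far from the other genes in the control ratio, and Hoxb13 and Hoxd13 do so in the knockout ratio, at 9.52 and 9.57. Both knockout ratios depend on the 0.2 CPM added, because knockout library 2 had 0 reads of either gene. Without Hoxb13, r was 0.374 and rho 0.411 over 27 genes, values computed after the data were seen. Hoxd13 stayed among the 27. Genes of a cluster are not independent and share libraries, so this is a description. The sign was the same for 18 of the 28, against 52.399% of all genes. In cluster B 2 of 9 genes were higher in the first library of each pair, with a median log2 ratio of -0.91 in the knockout pair and -1.61 in the control pair. In cluster A 6 of 11 were higher in knockout library 1 and 10 of 11 in control library 1. Cluster D went opposite ways in the pairs: 4 of 7 genes were higher in knockout library 1, with a median log2 ratio of 0.56, and 1 of 7 in control library 1, with a median of -1.89.

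**Figure D5:**
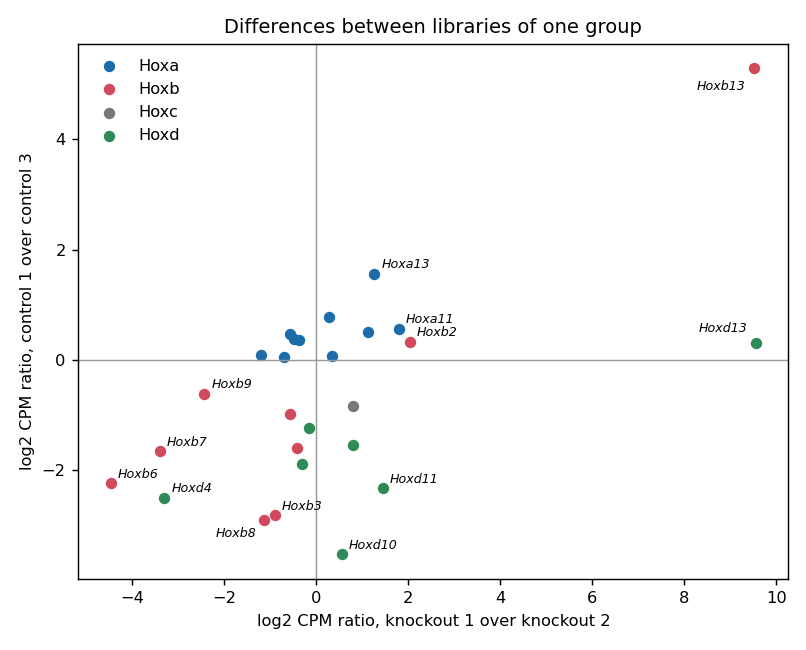
Log2 ratio of CPM plus 0.2 of knockout library 1 over 2 and of control library 1 over 3 for the tested Hox genes reported here. Hoxb13 is above 0 in both ratios, and Hoxb6 and Hoxb7 are below 0 in both; ratios that involve a library with 0 reads depend on the added 0.2 CPM.

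Other genes with a known place along the colon were read in the same libraries. Of the distal colon list 0 of 6 tested members passed edgeR's test. Atp12a, the colonic potassium pump, stood at 520, 1.97 and 254 CPM in the knockout libraries, against 131, 72.2 and 9.79 CPM in the control libraries, the order of libraries seen for the summed group 13 genes. Insl5, a hormone of distal colon endocrine cells, stood at 17.6, 1.02 and 9.79 CPM in the knockout libraries, against 12.7, 5.84 and 1.34 CPM in the control libraries. Scnn1b, a sodium channel subunit with the smallest p of the list, stood at 4.92, 14.2 and 6.42 CPM in the knockout libraries, against 2.41, 4.80 and 3.10 CPM in the control libraries, without overlap and highest in knockout library 2, unlike Atp12a. Pyy, a gut hormone, stood at 33.2, 21.9 and 29.1 CPM in the knockout libraries, against 41.6, 24.0 and 23.3 CPM in the control libraries, also in another order. Most of the summed CPM of the list in knockout library 1 was Atp12a, and the sum was 642, 62.2 and 346 in the knockout libraries, against 270, 150 and 61.0 in the control libraries.

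Of the small intestine and proximal list 0 of 7 tested members passed. Fabp2, a fatty acid binding protein of absorptive cells, stood at 11.8, 244 and 126 CPM in the knockout libraries, against 227, 254 and 222 CPM in the control libraries. Summed CPM was 32.5, 474 and 262 in the knockout libraries, against 327, 376 and 440 in the control libraries. Knockout library 1 was far below the others in this sum, which Fabp2 and Alpi, an intestinal phosphatase, mostly make up. Within the knockout group Fabp6 and Apoa1, of lipid and bile acid transport, were instead lowest in library 2, at 0.853, 0.511 and 1.5 CPM and at 1.18, 0.803 and 1.62 CPM, against 1.11, 0.925 and 2.67 CPM and 0.0618, 0 and 0.425 CPM in the control libraries. Knockout library 1 was also the lowest for Cdx2, the intestinal homeobox factor that acts upstream of Hox genes, at 25.3, 264 and 143 CPM in the knockout libraries, against 223, 211 and 250 CPM in the control libraries. Of the gut segment transcription factors 0 of 12 tested members passed.

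Markers of tissue layers and cell types are given beside the Hox values, and in bulk tissue fewer cells of a type and less RNA per cell cannot be told apart. All 12 smooth muscle markers were lower in knockout, of which Actg2, Myh11, Des, Lmod1 and Tpm1 fell past the edgeR threshold, against 0.67% of all genes called lower, and their summed level was 5228, 2612 and 3756 CPM in the knockout libraries, against 15170, 13840 and 10970 CPM in the control libraries. Fibroblast markers summed to 3540, 881 and 2115 CPM in the knockout libraries, against 1149, 891 and 1011 CPM in the control libraries, with 0 of 10 past the threshold. Colon epithelium markers summed to 10580, 33130 and 22220 CPM in the knockout libraries, against 24280, 25000 and 24850 CPM in the control libraries, with 0 of 12 past the threshold. Enteric neuron markers summed to 996, 282 and 608 CPM in the knockout libraries, against 294, 359 and 318 CPM in the control libraries, with 0 of 11 past the threshold. Without knockout library 3, 0 of the 12 smooth muscle markers passed, against 0.0558% of all genes called lower. Their lowest adjusted p was then 0.116 by edgeR, and 12 of 12 were still lower. Neutrophil markers had 3 of 5 tested members past the threshold, S100a8, S100a9 and Csf3r, all higher in knockout, against 1.09% of all genes, with a summed level of 671, 121 and 374 CPM in the knockout libraries, against 124, 127 and 60.5 CPM in the control libraries. Leukocyte markers had 1 of 8, Laptm5, past the threshold and higher in knockout, against 1.09% of all genes. They summed to 1107, 2323 and 1724 CPM in the knockout libraries, against 826, 354 and 888 CPM in the control libraries. Without knockout library 3 neither the neutrophil nor the leukocyte list had a member past the threshold, against 0.0372% of all genes called higher. The lowest adjusted p was then 0.116 for neutrophil and 0.199 for leukocyte markers by edgeR. Adipocyte markers had 0 of 6 past the threshold, a median log2 fold change of -2.30, and sums of 248, 47.0 and 143 CPM in the knockout libraries, against 336, 299 and 121 CPM in the control libraries. Knockout library 1, which had the most group 13 Hox RNA, also had the most fibroblast and neuron RNA and the least epithelial RNA. Endothelium markers were highest there too, but enteric glia markers were lowest there. The glia sums were 388.7, 483.9 and 429.9 CPM in the knockout libraries, against 467, 503.6 and 531.5 CPM in the control libraries, with 0 of 6 past the threshold. The part of these cell types in the Hox values was not tested. Of 9 prostate and seminal vesicle markers 6 had no reads, and the sum reached at most 0.525 CPM. Squamous epithelium markers summed to 17.05, 39.55 and 25.69 CPM in the knockout libraries, against 16.87, 31.99 and 14.1 CPM in the control libraries. Of these, 0 of 3 tested members passed. The part of other tissues in the Hoxb13 values was not tested.

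Cofactors of the TALE class, homeodomain proteins that bind DNA with Hox proteins, had 0 of 10 tested members past the threshold, with a median log2 fold change of 0.12. Pbx2, their most abundant, stood at 46.0, 42.9 and 41.5 CPM in the knockout libraries, against 44.5, 42.6 and 59.5 CPM in the control libraries. Polycomb and Trithorax regulators, which keep Hox clusters off or on, had 0 of 21 past the threshold. Of the retinoic acid pathway, which sets Hox expression in the embryo, 0 of 15 tested passed, with a median log2 fold change of 0.45. Dhrs3, which lowers retinal levels, stood at 79.2, 61.4 and 66.0 CPM in the knockout libraries, against 35.2, 32.3 and 43.8 CPM in the control libraries, without overlap and with an adjusted p of 0.065 by edgeR.

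Noncoding genes inside the clusters and genes beside them had 0 of 8 and 0 of 16 tested members past the threshold. Hottip, transcribed beside Hoxa13, stood at 10.5, 1.75 and 5.42 CPM in the knockout libraries, against 20.8, 22.1 and 2.67 CPM in the control libraries, the order of Hoxa13 within each group apart from controls 1 and 2. Hoxa11os, antisense to Hoxa11, stood at 109, 34.4 and 65.2 CPM in the knockout libraries, against 170, 162 and 70.0 CPM in the control libraries. Gm53, a noncoding gene of cluster B, stood at 23.2, 70.8 and 49.9 CPM in the knockout libraries, against 57.1, 75.9 and 88 CPM in the control libraries, lowest in knockout library 1 like Hoxb6 and unlike Hoxb13.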

How the data were processed

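Total RNA from flash-frozen mouse colon was sequenced as Illumina libraries, per the labels' protocols. Per the file headers, the deposited table gives a read count and an FPKM value per gene and library; the authors left the deposited counts as raw whole numbers. The ratio of count to deposited FPKM followed the library total within 0.01 log2 for 100% of 7788 genes checked. Per the submitters' processing notes, edgeR, StringTie 1.3.0 and HISAT2 2.0.4 were named, with builds that do not match the coordinates; start and end equal GENCODE M21 (GRCm38) for all 39 Hox genes. Strandedness and the handling of reads with several matches are unknown.

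Counts were fitted with edgeR 4.0.16 in R 4.3.3 (TMM, filter on low counts, quasi-likelihood test, knockout against control, Benjamini-Hochberg over 15819 genes, threshold 0.05). CPM values are after TMM. Levels are compared between genes as FPKM only. Alternatives were DESeq2 1.42.0, other scaling, filters, limma 3.58.1 on log2(FPKM + 1) and log2(FPKM + 0.1), array weights, leaving out single libraries, and a replicate block. The test was checked on simulated data with known changes. It recovered 6.97% of 2-fold, 63.7% of 4-fold and 95.5% of 16-fold changes, and 5.32% of its calls were false. These rates are means over genes drawn at random from all genes tested, with libraries simulated as independent. They do not carry over to the Hox genes, which more often than other genes ranged at least 2-fold among controls. Hoxd13, with a log2 fold change of 7.75, did not pass. A gene that did not pass may therefore still differ by 2-fold or more. Counts and sums cover every Hox gene, and some genes are not reported here by name; values per library are given for the 12 tested members of smallest p, the highest of each cluster and group 13, and of other lists for up to 4 members of smallest p and the 2 most abundant. Hoxb6, Hoxd3, Hoxd4, Hoxd10 and Hoxd12 fall outside this rule and were chosen after their values were seen. Members and lists were chosen with earlier results of these data known. Genes of the lists absent from the table were not analysed here. The design text mentions duplicates, but 3 samples per group are labelled.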

Additional observations from a re-analysis of the deposited data

How the results depend on the processing

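Under every scaling and filter of edgeR tried, 0 Hox genes passed. DESeq2 called 1 Hox gene higher and 1 lower, and array weights 1 higher and 4 lower. Leaving out 1 library gave 0 to 2 higher, counting Hoxd12 with the limit given above, and 0 to 2 lower. All genes past the threshold numbered 278, against 1448 with DESeq2, 9 with the replicate block and 3588 with array weights, and 15 to 1825 when 1 library was left out. Members of the pathway lists past the threshold, summed over the lists, numbered 6 with DESeq2, where 8.11% of all genes passed. They numbered 14 with array weights, where 22.7% of all genes passed, and 0 to 11 when 1 library was left out. The 11 were found without knockout library 2, where 11.2% of all genes passed. The tested members of each list are counted above. On FPKM the groups did not overlap for 5 of 28 Hox genes, against 22.1% of all genes. The posterior share differed by 2.13 to 22.6 percentage points when 1 library was left out. The cause of these shifts was not tested.

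Log2 fold changes turned sign for Hoxb3 at 0.25 (FPKM + 1, with or without the filter), 0.36 (FPKM + 0.1), 0.31 (replicate block) and 0.64 (array weights), for Hoxb6 at -0.29, -0.43 and -0.50 (FPKM + 1, FPKM + 0.1 and the block), and for Hoxb7 at 0.20 (array weights). When 1 library was left out, ranges crossing 0 were -0.0351 to 0.49 for Hoxa4, -0.14 to 0.67 for Hoxa11, -0.52 to 0.88 for Hoxb3, -0.23 to 0.69 for Hoxb4, -0.0261 to 0.49 for Hoxb5, -0.76 to 0.82 for Hoxb6, -0.82 to 0.61 for Hoxb7, -1.75 to 0.36 for Hoxb8, -0.72 to 0.35 for Hoxb9, -0.0946 to 0.76 for Hoxc4 and -0.32 to 1.26 for Hoxd4. Whether same-numbered libraries are pairs is not known from the labels. Their deviations from the group means correlated at 0.042, -0.166 and -0.0164, which cannot decide it with 3 libraries a group. With the block the lowest Hox adjusted p was 0.204 by edgeR. Counts under 3 reads limit cluster C.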
